A study of Mus musculus with 8 samples.

Results

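The genes described here encode the main enzymes that add methyl groups to lysine 4 of histone H3 (H3K4) or take them off, 6 methyltransferases (Kmt2a, Kmt2b, Kmt2c, Kmt2d, Setd1a and Setd1b) and 4 demethylases (Kdm1a, Kdm5a, Kdm5b and Kdm5c). They were chosen by name and all 10 were found among the 55414 genes of the count table. Their RNA was measured by bulk sequencing of macrophages from mouse skin wounds, in 5 libraries taken on day 3 after injury (a to e) and 3 taken on day 1 (a to c). In both groups cells of the digested wound bed were selected with magnetic beads against F4/80, a macrophage surface protein, and each library pooled 6 wounds from 3 mice. The submitters' protocol gives 6 samples per time point, more than the series holds for either day. Strain, genotype, sex and age of the mice, and whether pools had mice in common, are not given in the sources used here, so a p-value here covers only variation from pool to pool, some of which may be technical.

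H3K4 methylation marks active regulatory DNA: trimethylation sits at promoters of transcribed genes and monomethylation at enhancers. The writers work in COMPASS complexes that share a core of WDR5, RBBP5, ASH2L and DPY30. SETD1A and SETD1B place most trimethylation, KMT2A and KMT2B act at chosen promoters such as those of the Hox genes, and KMT2C and KMT2D place monomethylation at enhancers. Among the erasers, the KDM5 enzymes use oxygen, iron and alpha-ketoglutarate to remove the trimethyl and dimethyl forms, and KDM1A (LSD1) uses a flavin cofactor to remove the dimethyl and monomethyl forms. Alpha-ketoglutarate can be made from glutamine, and the title of the series names glutamine metabolism and epigenetic regulation.

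Total counts per library ran from 41566151 to 60289310. All 12 macrophage markers were counted, summing to between 36188 and 46144 CPM (reads per 1e6 counted, scaled between libraries) at day 3 and to between 25154 and 30958 CPM at day 1. The largest part at day 3 was Lyz2, with 15661 to 23432 CPM, against 6717 to 9897 CPM at day 1. Adgre1, C1qb and C1qc were also higher in every day 3 library. Fcgr1 was lower in every one (344 to 488 CPM against 717 to 979 CPM), and the ranges of the remaining markers overlapped. The 12 neutrophil markers together had 687, 3845, 454, 492 and 534 CPM in day 3 a to e, against 839, 2276 and 4039 CPM in day 1 a to c, so only day 3 b of the later libraries reached the range of the earlier ones. Fibroblast markers summed to between 61.4 and 130.4 CPM at day 3 and to between 9.94 and 37.8 CPM at day 1. Of 6491 genes with a median of at least 10 CPM, 85 had 3 counts or fewer in day 1 a, and between 0 and 4 did in each other library. In bulk RNA, fewer cells of a type and less RNA per cell cannot be told apart.

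None of the 10 genes was called different between the days by the edgeR quasi-likelihood test at an adjusted p under 0.05, where 0.0130% of the 15371 genes tested did. At an unadjusted p under 0.05 there was 1 of the 10, Kdm5c, against 15.7% of all genes (10.5% lower and 5.16% higher at day 3). DESeq2 called 1 of the 10, again Kdm5c and lower at day 3, against 6.77% of all genes (4.29% called lower), and limma voom called 0, against 5.37%. With a stricter filter on low counts, which kept 8 of the 10, edgeR called 0 of them, against 1.79% of the genes then tested. For 0 of the 10 did the day 3 and day 1 ranges lie apart, against 14.1% of all genes. The log2 fold change (day 3 over day 1) was above 0 for 5 genes and below 0 for 5, where 57.1% of all genes were below 0, with a median of -0.07, against -0.17 over all genes tested. Writers had a median log2 fold change of -0.14 and erasers of -0.06. The plot of CPM by library shows every value.

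**Figure D1:**
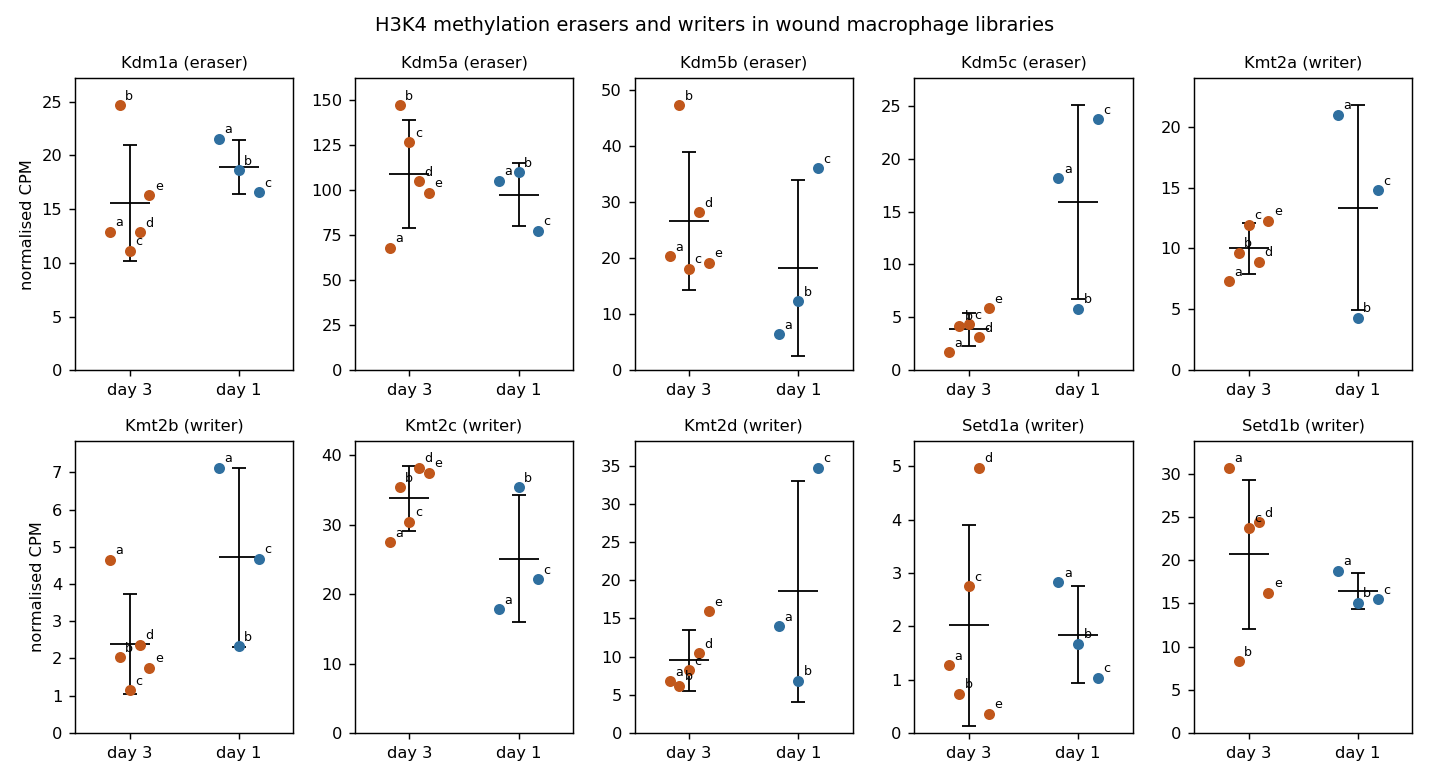
Normalised CPM of the 4 erasers and 6 writers (vertical axes, each from 0) in the 5 day 3 libraries (orange) and the 3 day 1 libraries (blue), with letters naming the libraries and black bars giving the mean ± SD. Kdm5c stood between 1.73 and 5.85 CPM at day 3 and at 5.81, 18.2 and 23.7 CPM at day 1, and the ranges of the other 9 genes overlapped more widely.

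Kdm5c had the log2 fold change farthest from 0 of the 10. It is an X-linked gene (ENSMUSG00000025332; GRCm39 chromosome X, 151016016 to 151057531, plus strand) for a trimethyl-H3K4 demethylase that escapes X inactivation. It had 1.73, 4.21, 4.37, 3.13 and 5.85 CPM in day 3 a to e, against 18.2, 5.81 and 23.7 CPM in day 1 a to c. All day 3 libraries were low, day 1 a and c were high, and day 1 b lay at the upper end of the day 3 range, so the groups just overlapped. The mean was 3.86 ± 1.53 CPM at day 3 and 15.9 ± 9.18 CPM at day 1 (SD, n = 5 and 3). This gave a log2 fold change of -2.04 ± 0.59 (SE; 95% confidence interval -3.36 to -0.72), with an edgeR adjusted p of 0.117 (unadjusted p = 0.00645). The DESeq2 adjusted p was 0.0156 and that of limma voom 0.156. Dropping each library in turn gave log2 fold changes between -2.45 and -1.64, with edgeR adjusted p between 0.0941 and 0.267. Reads on chemosensory receptor genes, which are expressed mainly in sensory neurons, reached between 0.0320 and 0.0911 CPM per exon kilobase in the day 1 libraries. Kdm5c reached between 0.817 and 3.34 CPM per kilobase in the same libraries. The lowest member values there were 0.243 (Kmt2b) and 0.265 (Kmt2a) CPM per kilobase of unshared exon. Both were in day 1 b, where the receptor genes reached 0.0685. The part of such stray reads in the members was not tested.

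The Y chromosome carries a paralogue of this gene, Kdm5d, also a trimethyl-H3K4 demethylase. Kdm5d had 11.5, 7.40, 13.0, 6.40 and 5.51 CPM in day 3 a to e, against 1.96, 8.08 and 7.30 CPM in day 1 a to c, with ranges that overlapped. Its log2 fold change was 0.60 ± 0.62 (edgeR adjusted p = 0.718), and 0.17 without day 1 a. Per length, Kdm5c made up between 24.3% and 69.4% of the summed Kdm5c and Kdm5d TPM (transcripts per 1e6, a level corrected for exon length) at day 3 and 95.2%, 60.5% and 87.4% in day 1 a, b and c. These shares depend on the annotated exon lengths, 7110 bases for Kdm5c and 15164 for Kdm5d. In CPM, Kdm5d was above Kdm5c in day 3 a to d and in day 1 b. The 2 genes together summed to 2.71 ± 0.577 TPM at day 3 and to 6.60 ± 3.42 TPM at day 1 (SD, n = 5 and 3), also with overlapping ranges (2.18 to 3.61 and 3.33 to 10.1 TPM). Xist, the RNA that coats the inactive X in female cells, had at most 6 counts in any library, whereas the Y-linked Ddx3y had between 128 and 169 CPM at day 3 and between 86.9 and 156 CPM at day 1. All 8 libraries held counts of Y-linked genes and almost none of Xist.

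**Figure D2:**
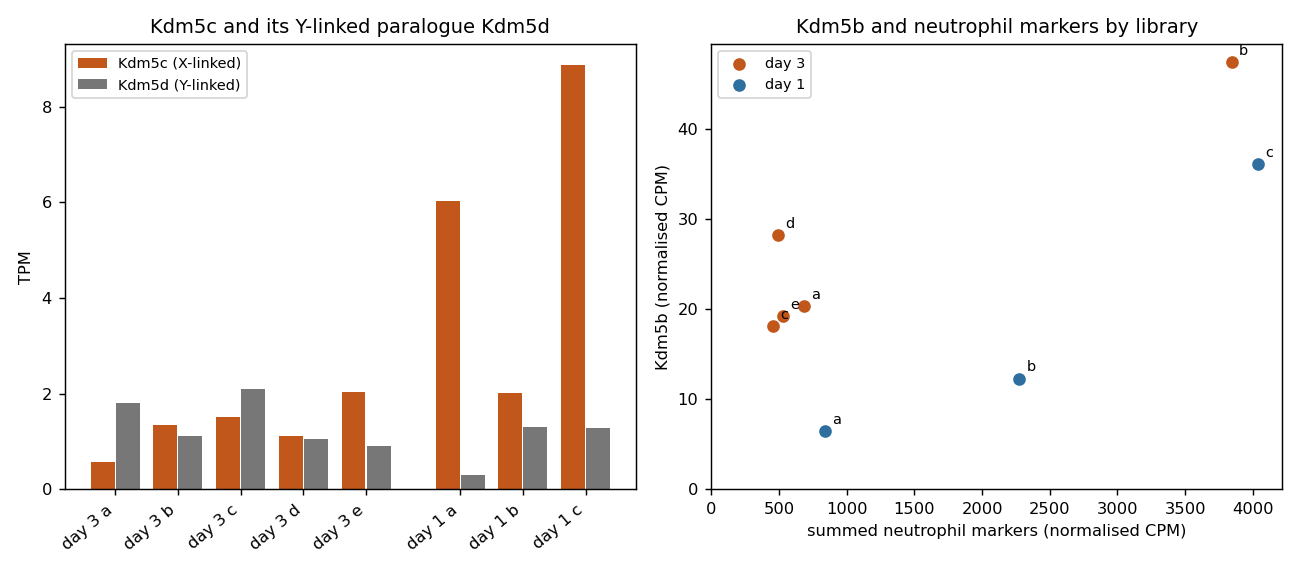
Left, TPM of Kdm5c and Kdm5d in each library (bars from 0): Kdm5c was above Kdm5d in all 3 day 1 libraries and in 3 of 5 day 3 libraries. In CPM, without division by exon length, Kdm5d was the higher in day 3 a to d and in day 1 b. Right, Kdm5b in normalised CPM against the summed CPM of 12 neutrophil markers, 1 point per library: day 3 b and day 1 c had the highest values of both, and day 1 b combined 2276 CPM of markers with 12.3 CPM of Kdm5b.

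The upstream sequence of the genes was read from the RefSeq promoter table (build GRCm38.p6), which matched 7 of the 10 members (Kdm1a, Kdm5b, Kdm5c, Kmt2a, Kmt2c, Kmt2d and Setd1a). The letters CG, which read the same on both strands, were counted in the 250 bases before each gene's start, since KMT2A, KMT2B and the SETD1 partner CXXC1 bind unmethylated CG through a CXXC domain. The 3 erasers held 21 (Kdm1a), 13 (Kdm5b) and 10 (Kdm5c) CG, and the 4 writers 29 (Kmt2a), 48 (Kmt2c), 26 (Kmt2d) and 25 (Setd1a), against a median of 6 over 32851 promoters. Of all promoters 37.8% held at least the 10 of Kdm5c, 31.5% at least the 13 of Kdm5b and 0.186% at least the 48 of Kmt2c. The 3 sequences are shown because they span the range among the members, with Kdm5c and Kdm5b also the erasers with the lowest and the highest log2 fold change. Capitals mark CG, and each runs from 5′ to 3′ on the strand of its gene, at chrX:152232977-152233226 (plus strand) for Kdm5c, chr1:134559928-134560177 (plus strand) for Kdm5b and chr5:25498784-25499033 (minus strand) for Kmt2c.
Kdm5c: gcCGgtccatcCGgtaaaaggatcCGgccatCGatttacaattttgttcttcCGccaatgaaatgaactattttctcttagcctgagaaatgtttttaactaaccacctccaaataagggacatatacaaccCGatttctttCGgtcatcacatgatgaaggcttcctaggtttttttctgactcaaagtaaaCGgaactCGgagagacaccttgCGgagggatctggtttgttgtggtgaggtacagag
Kdm5b: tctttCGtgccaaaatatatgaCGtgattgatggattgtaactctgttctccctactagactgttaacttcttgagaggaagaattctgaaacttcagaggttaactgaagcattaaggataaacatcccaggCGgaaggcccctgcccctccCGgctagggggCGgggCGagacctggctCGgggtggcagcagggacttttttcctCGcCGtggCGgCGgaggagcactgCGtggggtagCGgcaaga
Kmt2c: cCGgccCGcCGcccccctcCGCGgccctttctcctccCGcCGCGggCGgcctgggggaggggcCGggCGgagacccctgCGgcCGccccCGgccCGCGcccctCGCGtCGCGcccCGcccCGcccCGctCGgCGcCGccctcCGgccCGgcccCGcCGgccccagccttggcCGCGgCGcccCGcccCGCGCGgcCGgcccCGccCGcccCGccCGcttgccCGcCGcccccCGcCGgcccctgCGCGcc
The CG of Kdm5b stand mostly in the part nearest the start, those of Kdm5c are scattered, and Kmt2c holds them along the whole stretch.

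Kdm5b (ENSMUSG00000042207; GRCm39 chromosome 1, 134487909 to 134563023, plus strand), a KDM5 demethylase that acts mainly as a repressor of transcription, had the higher mean at day 3, within a wide spread. It had 20.4, 47.4, 18.1, 28.2 and 19.2 CPM in day 3 a to e, against 6.44, 12.3 and 36.1 CPM in day 1 a to c. The high libraries were day 3 b and day 1 c, which were also the libraries with the most neutrophil markers on their days (3845 and 4039 CPM). Day 1 b did not follow this order: it had 2276 CPM of neutrophil markers, more than 4 of the 5 day 3 libraries, and 12.3 CPM of Kdm5b, less than all 5. The part of neutrophil RNA in Kdm5b was not tested. Its log2 fold change was 0.54 ± 0.56 (95% confidence interval -0.71 to 1.80, edgeR adjusted p = 0.719), with 1.49 without day 1 c (adjusted p = 0.176) and 0.10 without day 1 a. Without day 1 c and day 3 b it was 1.19 (adjusted p = 0.217).

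Kdm5a and Kdm1a had confidence intervals that included 0. Kdm5a, the founding member of the KDM5 family and first found as a retinoblastoma-binding protein, had 68.0, 147, 127, 105 and 98.5 CPM in day 3 a to e, against 105, 109.9 and 77.4 CPM in day 1 a to c. Day 3 held both the lowest and the highest library. Its log2 fold change was 0.16 ± 0.25 (95% confidence interval -0.40 to 0.73, edgeR adjusted p = 0.830). Without day 1 c and day 3 b it was -0.12 (adjusted p = 0.853). Kdm1a, the flavin-dependent LSD1, had 12.9, 24.7, 11.1, 12.9 and 16.3 CPM in day 3 a to e, against 21.5, 18.7 and 16.6 CPM in day 1 a to c. Day 3 b was the highest of the 8, and the other 4 day 3 libraries lay below every day 1 library. The log2 fold change of Kdm1a was -0.28 ± 0.35 (95% confidence interval -1.07 to 0.50, edgeR adjusted p = 0.774) and -0.51 without day 3 b (adjusted p = 0.544).

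The writers come in paralogue pairs. In the first, Kmt2a (MLL1), known as a Hox gene regulator and a leukaemia fusion partner, had 7.31, 9.64, 11.96, 8.89 and 12.3 CPM in day 3 a to e, against 21.0, 4.32 and 14.8 CPM in day 1 a to c. The day 1 libraries spanned a wider range than all 5 day 3 libraries. Its log2 fold change was -0.42 ± 0.51 (95% confidence interval -1.55 to 0.72, edgeR adjusted p = 0.769), and 0.02 without day 1 a. Kmt2b, which in macrophages is known to keep Pigp, a gene of the GPI anchor pathway, active, had 4.65, 2.03, 1.14, 2.37 and 1.75 CPM in day 3 a to e, against 7.12, 2.34 and 4.68 CPM in day 1 a to c. Day 3 b to e lay at or near the level of day 1 b or below it, and the log2 fold change was -0.98 ± 0.78 (95% confidence interval -2.72 to 0.77, edgeR adjusted p = 0.620). Pigp itself had 13.5 ± 2.26 CPM at day 3 and 9.73 ± 3.36 CPM at day 1 (SD, n = 5 and 3; log2 fold change 0.47 ± 0.39, edgeR adjusted p = 0.634), and 28.2% of its exon bases are shared with other genes.

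The enhancer methyltransferase genes Kmt2c (MLL3) and Kmt2d (MLL4) had means that went opposite ways. Kmt2c had 27.5, 35.4, 30.4, 38.2 and 37.5 CPM in day 3 a to e, against 17.8, 35.4 and 22.1 CPM in day 1 a to c. Day 1 a and c were the 2 lowest libraries, and day 1 b was as high as day 3 b. The log2 fold change of Kmt2c was 0.43 ± 0.28 (95% confidence interval -0.20 to 1.06, edgeR adjusted p = 0.529). Kmt2d had 6.76, 6.18, 8.18, 10.5 and 15.9 CPM in day 3 a to e, against 14.0, 6.84 and 34.8 CPM in day 1 a to c. Its log2 fold change was -0.96 ± 0.55 (95% confidence interval -2.20 to 0.28, edgeR adjusted p = 0.458), and -0.13 without day 1 c, which held the highest value. Per length, the log2 ratio of Kmt2c over Kmt2d TPM was 1.88 ± 0.459 at day 3 and 0.66 ± 1.54 at day 1 (SD, n = 5 and 3). It lay between 1.21 and 2.49 in the day 3 libraries and at 0.32, 2.35 and -0.68 in day 1 a, b and c, so day 1 b fell inside the day 3 range.

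Setd1b and Setd1a encode the SET1 enzymes. Setd1b had 30.7, 8.28, 23.8, 24.4 and 16.2 CPM in day 3 a to e, against 18.8, 15.1 and 15.5 CPM in day 1 a to c. The day 1 libraries lay close together, with day 3 libraries both above and below them, and the log2 fold change was 0.33 ± 0.42 (95% confidence interval -0.61 to 1.27, edgeR adjusted p = 0.779). Setd1a had 1.27, 0.732, 2.75, 4.97 and 0.362 CPM in day 3 a to e, against 2.82, 1.67 and 1.04 CPM in day 1 a to c. Its counts are an underestimate: 3552 of its 6795 exon bases (52.3%; GRCm39 chromosome 7, 127375842 to 127399294) are shared with other annotated genes, 3523 of them with Gm49388 on the same strand, which had 0 counts in all 8 libraries. The recorded counting command has no option to assign reads that fall on more than 1 gene. The log2 fold change of Setd1a was 0.13 ± 1.08, with a 95% confidence interval from -2.29 to 2.55, the widest of the 10, and an edgeR adjusted p of 0.972. Of the other 9 members, shared exon bases were at most 2.27% (Kmt2a).

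**Figure D3:**
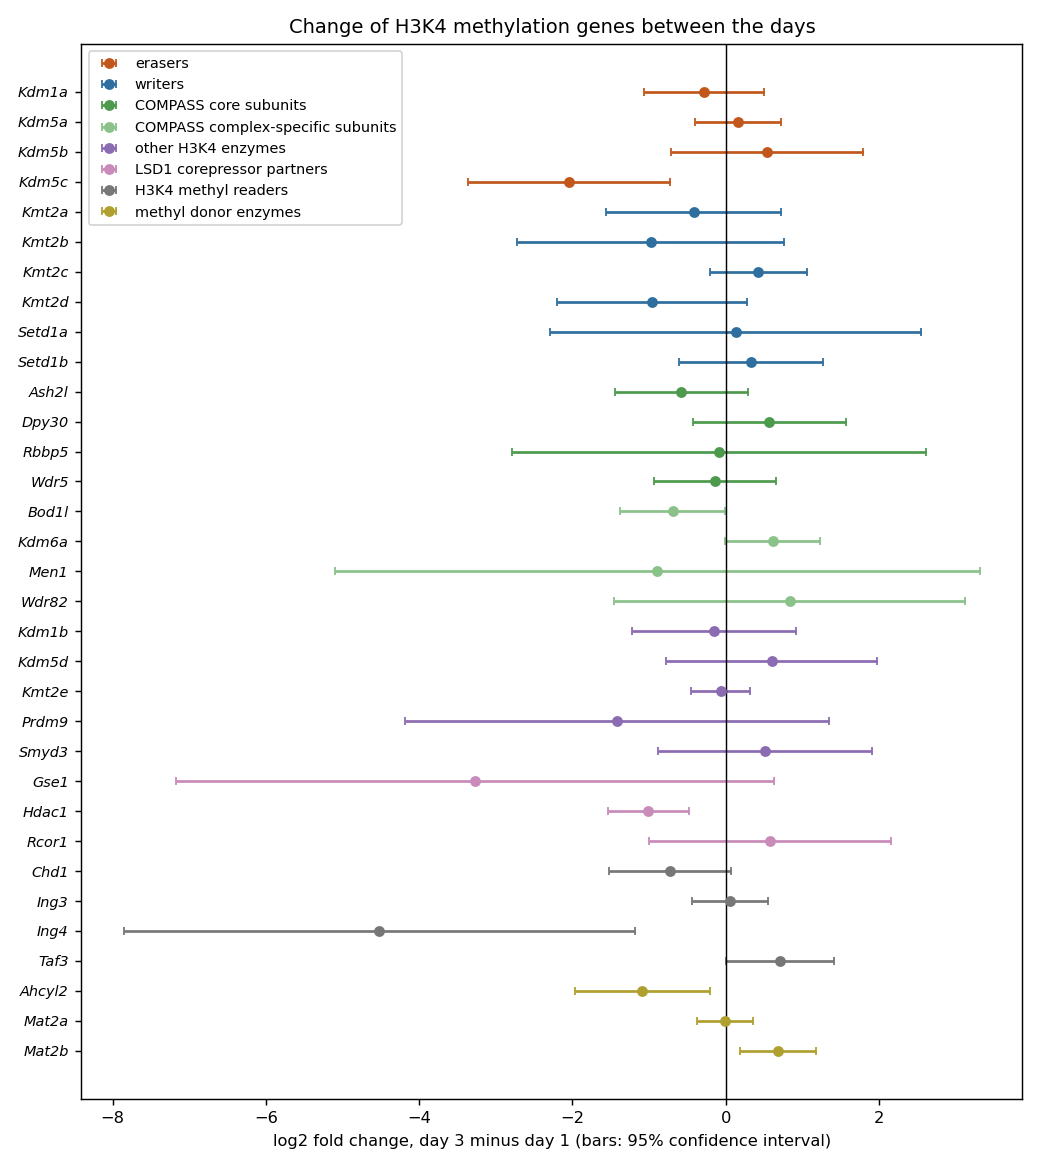
Log2 fold change (day 3 minus day 1, horizontal axis) with its 95% confidence interval for the 4 erasers, the 6 writers and the named genes of 6 related lists, coloured by list. Kdm5c, at -2.04, is the 1 member whose interval does not reach 0, and Setd1a has the widest interval of the 10.

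Set side by side per length, the sum of the erasers outweighed that of the writers on both days, largely through Kdm5a. Kdm5a was the highest member at 18.6 ± 4.70 TPM at day 3 and 17.1 ± 2.35 TPM at day 1 (SD, n = 5 and 3), and Kdm1a the next at 7.22 ± 2.22 TPM at day 3 and 9.07 ± 0.668 TPM at day 1. Setd1b, Kmt2c and Kdm5b followed at 4.18 ± 1.77, 4.04 ± 0.632 and 3.86 ± 1.61 TPM at day 3 and at 3.39 ± 0.295, 3.09 ± 1.13 and 2.85 ± 2.59 TPM at day 1, within 1 SD of one another on each day by the wider of the SDs. Kmt2a, Kmt2d and Kmt2b were at 1.46 ± 0.328, 1.17 ± 0.515 and 0.602 ± 0.333 TPM at day 3 and at 1.99 ± 1.21, 2.38 ± 1.99 and 1.22 ± 0.579 TPM at day 1. Setd1a was the lowest over all 8 libraries at 0.707 TPM, or 1.48 TPM if its counts are set over its 3243 unshared exon bases. Kdm5c had the place above Setd1b at day 1 (5.64 ± 3.44 TPM) and the place below Kmt2a at day 3 (1.32 ± 0.536 TPM).

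The 4 erasers summed to 31.0 ± 7.58 TPM at day 3 and 34.6 ± 2.92 TPM at day 1, and the 6 writers to 12.2 ± 2.44 TPM at day 3 and 12.7 ± 2.48 TPM at day 1 (SD, n = 5 and 3). Erasers thus held 71.0% ± 7.99 of the summed TPM of the 10 genes at day 3 and 73.3% ± 2.36 at day 1. Kdm5a alone held 42.5% ± 6.09 at day 3 and 36.7% ± 9.04 at day 1, so the excess of erasers rests largely on this gene. The writer sum includes the underestimated Setd1a. The log2 ratio of erasers over writers was 0.71, 2.35, 1.32, 1.02 and 1.28 in day 3 a to e, against 1.39, 1.66 and 1.33 in day 1 a to c. Day 3 b was the highest of the 8. The other 4 day 3 libraries (0.71 to 1.32) lay below every day 1 library (1.33 to 1.66), but narrowly, with day 3 c at 1.321 and day 1 c at 1.330. In summed CPM this order did not hold: day 3 c had 160 CPM of erasers and 78.2 CPM of writers, against 154 and 92.8 CPM in day 1 c. Day 3 b had the highest Kdm1a, Kdm5a and Kdm5b and the lowest Setd1b and Kmt2d of the 8 libraries, beside its neutrophil markers at 3845 CPM. The part of that marker signal in the ratio was not tested. The mean log2 ratio differed by -0.12 (1.34 ± 0.618 at day 3 and 1.46 ± 0.177 at day 1), which is under the SD at either day. Without day 3 b it differed by -0.38. The TPM ranges then lie apart only by the margin between day 3 c and day 1 c, and those in summed CPM overlap.

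**Figure D4:**
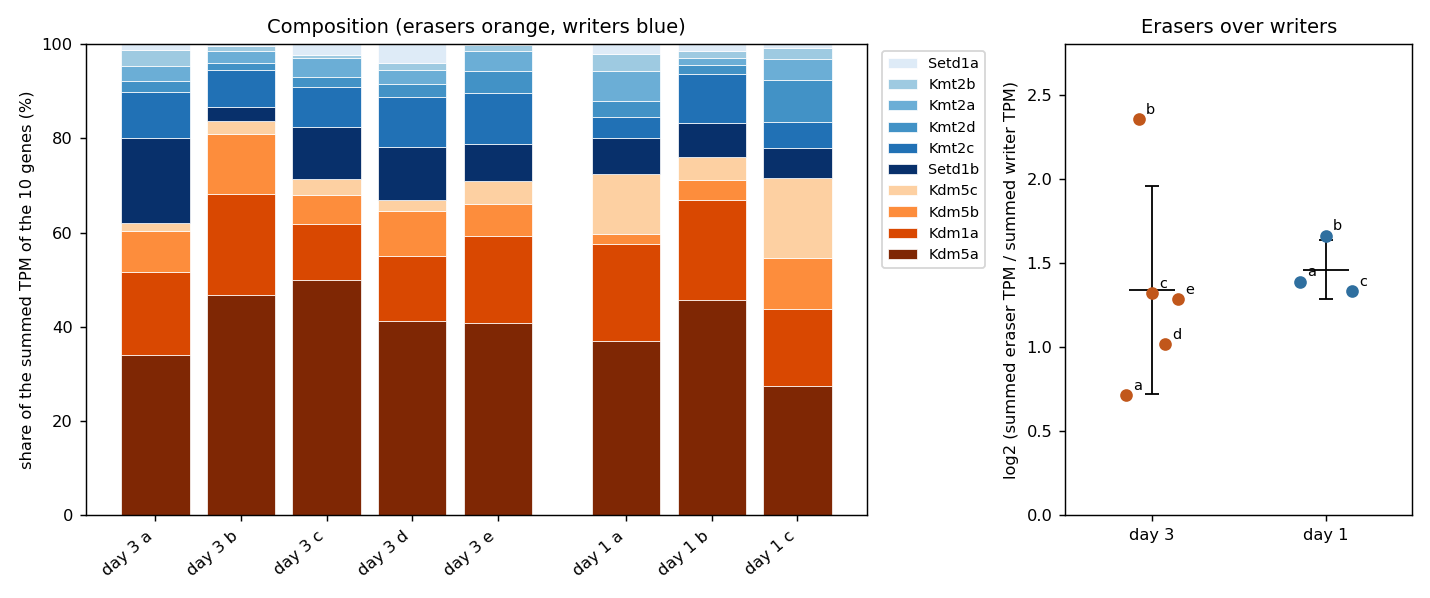
Left, share of each gene in the summed TPM of the 10 genes, in percent, for each library (erasers orange, writers blue). Right, log2 of summed eraser TPM over summed writer TPM, 1 point per library with mean ± SD: Kdm5a took between 34.0% and 49.9% at day 3 and between 27.6% and 45.6% at day 1, and the ratio was 2.35 in day 3 b and between 0.71 and 1.32 in the other day 3 libraries, against 1.33 to 1.66 at day 1.

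Of the 4 core subunits that all writers share, 0 were called by edgeR, DESeq2 or limma voom and 0 had an unadjusted p under 0.05. Wdr5, the scaffold of the core, had 12.3 ± 2.86 CPM at day 3 and 13.5 ± 1.70 CPM at day 1 (SD, n = 5 and 3; log2 fold change -0.14 ± 0.36). Ash2l, whose protein stimulates the methyltransferases, had 21.7 ± 8.83 CPM at day 3 and 32.5 ± 8.91 CPM at day 1 (-0.58 ± 0.39). Dpy30, the dimeric small subunit, had 39.3 ± 11.6 CPM at day 3 and 26.4 ± 17.7 CPM at day 1 (0.57 ± 0.44), and for all 3 of these genes the days overlapped. Rbbp5, the partner of Ash2l, had between 5.51 and 11.95 CPM in the day 3 libraries, against 16.7 and 15.1 CPM in day 1 b and c and 0 counts in day 1 a. Its log2 fold change was -0.09 ± 1.20, and -0.70 without day 1 a (edgeR adjusted p = 0.435). Cxxc1, Wdr82 and Hcfc1, further COMPASS genes, likewise had 2, 3 and 6 counts in day 1 a and between 30 and 1320 in each other library.

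Of 11 genes for subunits particular to some COMPASS complexes, 10 were tested and 0 were called by edgeR, DESeq2 or limma voom. Of them, 1 had an edgeR unadjusted p below 0.05, against 15.7% of all genes. Kdm6a, the X-linked subunit of the KMT2C and KMT2D complexes that also removes methyl groups from lysine 27 of histone H3, had 22.4, 29.9, 37.3, 21.1 and 30.04 CPM in day 3 a to e, against 16.3, 19.6 and 19.4 CPM in day 1 a to c. All day 3 libraries lay above all day 1 libraries, as for 5.31% of all genes tested, and the log2 fold change was 0.61 ± 0.27 (edgeR adjusted p = 0.320). Its Y-linked paralogue Uty also had ranges that lay apart, 30.9 to 48.3 CPM at day 3 and 15.5 to 21.4 CPM at day 1 (1.00 ± 0.26, edgeR adjusted p = 0.0907, DESeq2 adjusted p = 0.00962). Of the 5 sex-linked genes listed, 4 were tested and 0 were called by edgeR (1 with unadjusted p below 0.05) or limma voom. DESeq2 called 1, Uty, higher, where it called 6.77% of all genes in either direction. Bod1l, a SETD1B partner, had 39.4 ± 16.1 CPM at day 3 and 63.7 ± 10.2 CPM at day 1 (-0.69 ± 0.30, edgeR adjusted p = 0.312), with overlapping ranges. Wdr82, which tethers SET1 to RNA polymerase, had a log2 fold change of 0.83 ± 1.02 and 0.23 without day 1 a, and Men1, encoding menin of the KMT2A and KMT2B complexes, -0.89 ± 1.88. Pagr1a was not tested, and 1412 of its 1430 exon bases are shared with other genes.

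Of 8 further genes for enzymes assigned to H3K4, 0 were called by any of the 3 tools and 0 had an unadjusted p under 0.05. Kmt2e, a MLL-family gene whose product has no methyltransferase activity of its own, had 131 ± 14.2 CPM at day 3 and 137 ± 25.2 CPM at day 1 (SD, n = 5 and 3; log2 fold change -0.07 ± 0.17). Kdm1b (LSD2), the paralogue of Kdm1a, had 9.58 ± 4.28 CPM at day 3 and 10.6 ± 1.74 CPM at day 1 (-0.15 ± 0.48), again with overlapping ranges. Smyd3, reported as an H3K4 methyltransferase, had 19.9 ± 6.31 CPM at day 3 and 14.0 ± 13.4 CPM at day 1 (0.52 ± 0.62). Prdm9, known as a meiotic H3K4 methyltransferase, had between 0.122 and 3.66 CPM at day 3 and 9.41, 2.70 and 0.328 CPM in day 1 a to c (-1.42 ± 1.23).

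Among 13 genes for partners of LSD1 in its corepressor complexes, 11 were tested and 0 were called by edgeR. Of them, 1 had an edgeR unadjusted p below 0.05, against 15.7% of all genes. DESeq2 and limma voom both called 1 gene lower. Over all genes, DESeq2 called 4.29% lower and limma voom called 5.37% in either direction. The gene called lower in this list is given next. That gene was Hdac1, a histone deacetylase of the complex, with 64.0, 69.5, 54.4, 36.1 and 48.2 CPM in day 3 a to e, against 121, 87.2 and 120.1 CPM in day 1 a to c. Every day 3 library lay below every day 1 library, as for 8.76% of all genes tested. The log2 fold change was -1.01 ± 0.24 with an edgeR adjusted p of 0.0829, and the adjusted p was 0.00796 by DESeq2 and 0.0343 by limma voom. Rcor1 (CoREST), which links LSD1 to the deacetylases, had 26.9 ± 9.76 CPM at day 3 and 18.1 ± 17.4 CPM at day 1 (0.57 ± 0.70). Gse1 had at most 0.646 CPM at day 3 and 0.0252, 1.89 and 3.50 CPM in day 1 a to c (-3.27 ± 1.74, a fitted value that low counts make uncertain), and 27.9% of its exon bases are shared.

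Of 14 genes for readers of methylated H3K4, 0 were called by edgeR or limma voom. Of them, 2 had an edgeR unadjusted p below 0.05, 1 in each direction, against 15.7% of all genes. DESeq2 called 1 of them lower, where it called 4.29% of all genes lower. That gene was Ing4, with at most 0.399 CPM at day 3 and 9.49, 1.32 and 1.86 CPM in day 1 a to c. Its fitted log2 fold change was -4.52 ± 1.49 (edgeR adjusted p = 0.167, DESeq2 adjusted p = 0.0164) and -3.12 without day 1 a, and 34.9% of its exon bases are shared with other genes, chiefly Gm44597 on the same strand. Taf3, the TFIID subunit that reads trimethylated H3K4, had 23.9 ± 6.32 CPM at day 3 and 14.6 ± 1.53 CPM at day 1 (0.71 ± 0.32, edgeR adjusted p = 0.315). Chd1, a chromatin remodeller, had 43.1 ± 17.1 CPM at day 3 and 71.2 ± 28.5 CPM at day 1 (-0.72 ± 0.36). Ing3, of the NuA4 acetyltransferase complex, had 82.1 ± 16.0 CPM at day 3 and 78.9 ± 18.7 CPM at day 1 (0.06 ± 0.22), and both genes had overlapping ranges.

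Enzymes of the methyl donor S-adenosylmethionine numbered 9, of which 0 were called by edgeR, DESeq2 or limma voom. Of them, 2 had an edgeR unadjusted p below 0.05, against 15.7% of all genes. Mat2a, the catalytic subunit that makes the donor, had 114 ± 13.7 CPM at day 3 and 115 ± 12.6 CPM at day 1 (SD, n = 5 and 3; log2 fold change -0.01 ± 0.16). Mat2b, its regulatory subunit, had between 105 and 149.9 CPM at day 3 and between 55.0 and 98.7 CPM at day 1 (0.68 ± 0.22, edgeR adjusted p = 0.157). These ranges lay apart with day 3 higher, as for 5.31% of all genes tested. Ahcyl2 had 16.0 ± 3.97 CPM at day 3 and 33.9 ± 18.4 CPM at day 1 (-1.09 ± 0.39, edgeR adjusted p = 0.207). Of 8 genes listed as known targets of the writers, 7 were tested, 0 were called by edgeR or DESeq2 and 0 had an unadjusted p under 0.05. Limma voom called 1 of them lower, Hoxa9, where it called 5.37% of all genes in either direction. Hoxa9, a KMT2A target in blood cells, had 18 counts in day 3 a, 0 in day 3 b to e, and 67, 166 and 37 in day 1 a to c. The number of genes with any count had a similar order. It was 20557 in day 3 a, between 14952 and 15359 in day 3 b to e, and 26530, 27315 and 23928 in day 1 a to c. The part of this difference in Hoxa9 was not tested. The cytokine genes among the listed targets were spread widely: Il1b had 851 ± 583 CPM at day 3 and 1331 ± 755 CPM at day 1, Tnf 158 ± 140.2 CPM at day 3 and 207 ± 117 CPM at day 1, and Il12b 9.73 ± 10.02 CPM at day 3 and 6.72 ± 4.74 CPM at day 1. All 3 were highest of day 3 in library b, beside its neutrophil markers, and the part of those cells was not tested.

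The members differed in how far 1 library set their value. With each of the 8 libraries left out in turn, the sign of the log2 fold change held throughout for 8 members, and turned for Kmt2a (-0.83 to 0.02) and Setd1a (-0.52 to 0.55). Kdm5c kept the most negative value of the 10 in all 8 cases. Day 1 c, left out, moved Kdm5b to 1.49 and Kmt2d to -0.13, and day 1 a, left out, moved Kmt2b to -0.57 and Kmt2c to 0.21. Day 1 b was the library whose removal took Kmt2c to 0.76 and Kdm5c to -2.45.

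**Figure D5:**
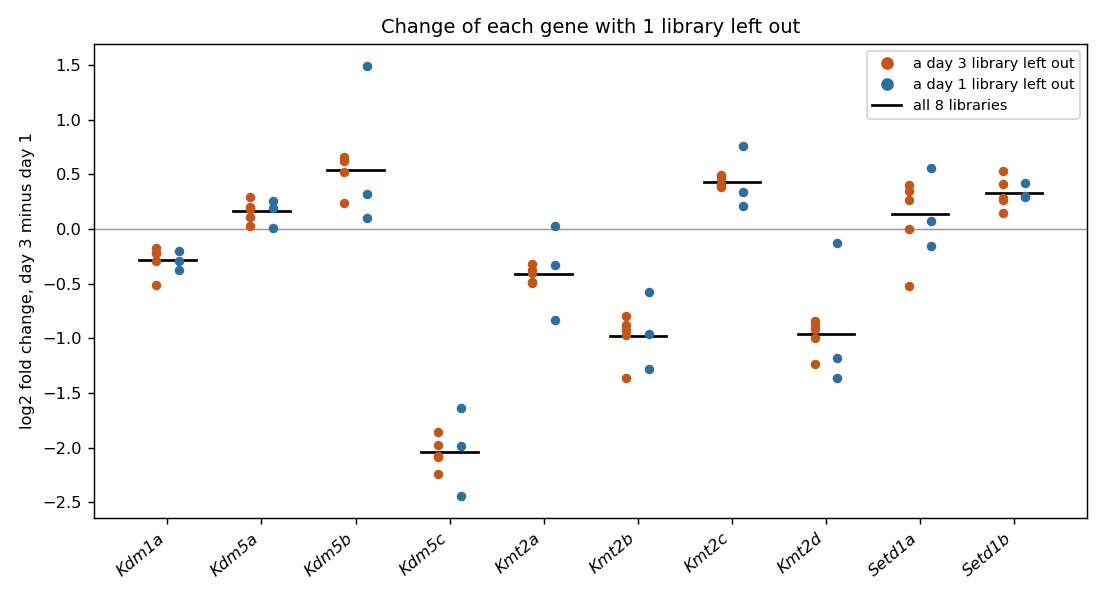
Log2 fold change (day 3 minus day 1, vertical axis) of each of the 10 genes with 1 library left out, from edgeR: orange points leave out a day 3 library, blue points a day 1 library, and black lines give the value with all 8. Kdm5c stayed between -2.45 and -1.64, and the points with a day 1 library left out spread more than the others for Kdm5b and Kmt2d.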

How the data were processed

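The table analysed holds raw read counts per gene, deposited by the authors for all 8 libraries. Per the file headers, counting used featureCounts 1.6.0 with Ensembl release 106 on GRCm39, with no option for strand, read pairs or reads on several genes. The submitters' processing notes name Trimmomatic and DESeq2 with no version. No aligner is named there or in the headers. Of counts between 2 and 20, between 73.0% and 86.0% per library were even, so both reads of a pair may have been counted. Of the gene IDs 52081 (94.0%) were given a symbol.

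Genes were kept by filterByExpr (minimum count 10; 15371 genes), scaled by TMM and tested with the edgeR 4.0.16 quasi-likelihood test in R 4.3.3, with Benjamini-Hochberg adjustment over all genes and a threshold of 0.05. Standard errors were derived from the F statistic. TPM used the deposited exon lengths. The alternatives were DESeq2 1.42.0, limma 3.58.1 voom without and with quality weights, other scalings and filters, halved counts, left-out libraries and a replicate block. Leaving out day 1 c and day 3 b together was chosen after seeing the data. The code was tested on simulated data. The detection floor of 3 counts stands for between 0.0498 and 0.0722 CPM. Day 3 libraries are named a to e and day 1 libraries a to c after the submitters' labels and the count columns. The alignment names in the recorded counting command carry partly other letters (day 3 a, c, d, e and f; day 1 a, b and f), so which letters name the original pools is not settled.

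The members and lists were chosen with earlier results of these data known. Named genes are the 10 members, the 4 core subunits, Kdm5d, Kdm1b and Kmt2e, and in each other list those called, the 2 most abundant and those with the highest and the lowest log2 fold change. Cxxc1, Hcfc1, Pagr1a, Pigp and Xist fall outside that rule and were chosen after their values were seen. For 1 gene under this rule no values are reported here.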

Additional observations from a re-analysis of the deposited data

Results flagged for a closer look

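Within the 5 day 3 libraries, 52 results were searched for a single library that stood apart from the other 4 by Dixon's criterion, and 9 were found, none of them a member. For independent, normally distributed values chance gives about 1 in 20. The 52 results share libraries and some hold counts at or near 0, so that rate is only a rough guide. Of the 9, 6 were high in day 3 b. These were the summed neutrophil markers (3845 CPM, next 687), keratinocyte markers (29.5 CPM, next 4.86) and dendritic cell markers (157 CPM, next 70.6), and the genes Il1b (1889 CPM, next 691), Il12b (27.5 CPM, next 6.66) and Ing3 (109.9 CPM, next 80.6). Ahcyl2 was high in day 3 c (22.9 CPM, next 15.3). Day 3 a was high for Gse1 (0.646 CPM, next 0.122) and for Hoxa9 (0.342 CPM, with 0 counts in the other 4).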

How the results depend on the processing

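The number of genes called depended strongly on the setting. It was 2 by edgeR, 2 with RLE factors or library totals, 1041 by DESeq2, 825 by limma voom, 990 by voom with quality weights, 1347 with no filter, 146 with the stricter filter, 46 with halved counts, 6 without day 1 c and day 3 b, and between 0 and 59 with 1 library left out. The highest were 59 without day 1 b and 31 without day 3 b. The number of members called was 0 in each of these except DESeq2, where it was 1 (Kdm5c). Same-letter libraries of the 2 days had correlations of deviations of 0.086, 0.027 and 0.00061 (a, b and c). Different letters gave -0.143 to 0.105. With 3 and 5 libraries these values cannot decide whether same letters were paired. The letters are those of the count columns, and the recorded counting command has partly other letters. A block by letter may therefore not join the pools it names. With the replicate block over letters a to c, 0 genes and 0 members were called (1343 genes at an unadjusted p under 0.05), and without it 0 (1660). Erasers over writers differed by 0.00305 over letters a to c alone, a plain difference of means with no block fitted. The difference was 0.02 in summed CPM, -0.08 as a mean of log2 TPM, -0.07 without Kdm1a and -0.38 to 0.03 with 1 library left out. The -0.38 is without day 3 b, where the TPM ranges of the 2 days lie narrowly apart (day 3 c at 1.321, day 1 c at 1.330). In summed CPM the ranges without day 3 b overlap. Of 188 alternative values of the members, 178 kept sign and side of the threshold, 9 turned in sign and 1 passed the threshold. The sign turned for Setd1a by voom (-0.24), voom with quality weights (-0.22), with the block (-0.34) and without it over a to c (-0.19), for Kmt2a by voom with quality weights (0.44) and for Kdm5a without day 1 c and day 3 b (-0.12). With 1 library left out, Kmt2a ran from -0.83 to 0.024 and Setd1a from -0.52 to 0.55. Among other genes it turned for Men1 (voom 1.12, quality weights 2.47, block 2.59, without both libraries 3.08), Rbbp5 (2.20, 0.98, 0.89 and 0.17 in the same order), Il12b (quality weights -0.22, without both libraries -0.73), Ing3 (-0.022 and -0.25 in that order), Ddx3y (-0.10) and Smyd3 (-0.13) without both, and Mat2a (library totals 0.0031, no filter 0.012, stricter filter 0.023, halved counts 0.0041, block 0.087, no block 0.089). With 1 library left out the other ranges that crossed 0 were Eif2s3y -0.029 to 0.55, Kmt2e -0.21 to 0.029, Mat2a -0.10 to 0.043, Prdm9 -2.01 to 0.033, Rbbp5 -0.70 to 0.39, Ddx3y -0.061 to 0.30, Ing3 -0.13 to 0.16, Men1 -1.47 to 3.16, Tnf -1.08 to 0.13, Il12b -0.34 to 1.23 and Kdm1b -0.43 to 0.028. The cause of these changes was not tested. The stricter filter removed Kmt2b and Setd1a, which have no value there. The widest 95% confidence intervals of the members run from -2.72 to 0.77 for Kmt2b and from -2.29 to 2.55 for Setd1a.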

Other observations

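Endothelial markers summed to between 17.3 and 29.9 CPM at day 3 and to between 31.2 and 78.1 CPM at day 1, and monocyte markers to between 3490 and 4544 CPM at day 3 and to between 6456 and 8283 CPM at day 1, in both cases with ranges that lay apart. Of 1985 chemosensory receptor genes taken by name, 492 had a count in day 3 a and between 21 and 65 in day 3 b to e. Between 626 and 1022 had a count in the day 1 libraries. The part of these differences in the values of the H3K4 genes was not tested.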
